A study of Rattus norvegicus with 23 samples.

Results

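NF-κB is a family of dimeric transcription factors. It switches on cytokine, chemokine and survival genes when a cell meets an inflammatory signal. In resting cells the dimers are held in the cytoplasm by IκB proteins, and the IκB kinase marks these for destruction so that the dimers can enter the nucleus. Several inhibitors, above all IκBα and A20, are themselves NF-κB target genes, and their new synthesis closes the loop. In lung, alveolar macrophages and epithelial cells use this pathway in their response to inhaled particles.

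The genes described here were 10 in number. The subunits were Nfkb1, Nfkb2, Rel, Rela and Relb. The inhibitors were Nfkbia, Nfkbib and Nfkbie, which encode IκB proteins, Nfkbiz, which encodes the nuclear IκB protein IκBζ, and Tnfaip3, which encodes the ubiquitin-editing enzyme A20. They were chosen by the gene name of the array's spots, and all 10 were among the 23031 genes tested. All of their 15 probes were well above background on every array, so every value of these genes below is a measured level and not a bound.

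Elderly F344 male rats, 19 months old, breathed filtered air or an aerosol of nanostructured TiO2 at 10 mg/m3 by nose-only inhalation, 6 h a day and 5 days a week for 4 weeks. They were killed at the end of exposure (D0) or after 28 days of recovery (D28). Total RNA of the accessory lung lobe was hybridised to 1-colour Agilent arrays, 1 rat per array, with groups of 6 controls and 5 exposed rats at D0 and of 6 controls and 6 exposed rats at D28. A lobe holds all lung cell types together. In such bulk RNA, fewer cells of a type and less RNA per cell cannot be told apart.

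The lobes carried lung RNA: the 8 genes of alveolar type II cells, surfactant genes among them, averaged 14.56 to 15.00 on the log2 signal scale over all arrays. The 75th percentile of the processed signal ranged from 1383 to 3470 over the arrays before normalization, and 69.5 to 77.9% of the spots were well above background. The arrays lay on 5 slides, each scanned on a day of its own, and slide 2 held a single array (control D28, replicate 4).

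The promoters of the members are shown because a κB site near the start of a gene is what links an inhibitor to the factor it inhibits. The RefSeq windows reached from 250 bases before the annotated start of a gene to 50 bases after it (GRCr8), and 9 of the 10 members had one. Relb had no entry. The κB consensus is 10 bases long and was searched on both strands, counting overlapping matches by their position. It was written loosely as GGGRNNYYCC, with R for A or G, Y for C or T and N for any base. At least 1 match was found in 7 of these 9 windows, against 7.51% of all 33469 windows of the same length. The 9 windows were 57 to 77.3% G and C, and the share of all windows was not matched for this. Rela and Nfkbib had no match, which says only that these letters are not in this window. Each window of 30 bases below is written 5′ to 3′ on the strand of its gene, with the matched bases in capitals. For Rel and Tnfaip3 not every match is shown.
Nfkb1: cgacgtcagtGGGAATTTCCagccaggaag
Nfkb2: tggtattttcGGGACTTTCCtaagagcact
Rel: cgtaggcagcGGGAAATCCCcccccgttcc
Nfkbia: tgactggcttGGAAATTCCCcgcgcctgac
Nfkbie: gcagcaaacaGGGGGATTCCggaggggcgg
Nfkbiz: tttttggcctGGGAATTTCCagcgtgtgga
Tnfaip3: tcacgtgactGGAAAGTCCCtcggaaatcc

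The windows lay at chr2:226805440-226805469 for Nfkb1 (minus strand), chr1:255108344-255108373 for Nfkb2 (plus strand) and chr14:101922001-101922030 for Rel (minus strand). They lay at chr6:78597084-78597113 for Nfkbia (minus strand), chr9:22948017-22948046 for Nfkbie (minus strand), chr11:58251698-58251727 for Nfkbiz (plus strand) and chr1:15544027-15544056 for Tnfaip3 (minus strand). Read on the strand of the match, Nfkb1, Nfkbiz and Nfkbia held the same 10 bases, and so did Nfkb2 and the match shown for Tnfaip3. The matches of Nfkb2, Nfkbia and Nfkbiz began at positions -20, -31 and -13 from the annotated start, while that of Nfkb1 began at position 3 behind it. The match of Nfkbie lay farther upstream, at position -164.

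**Figure D1:**
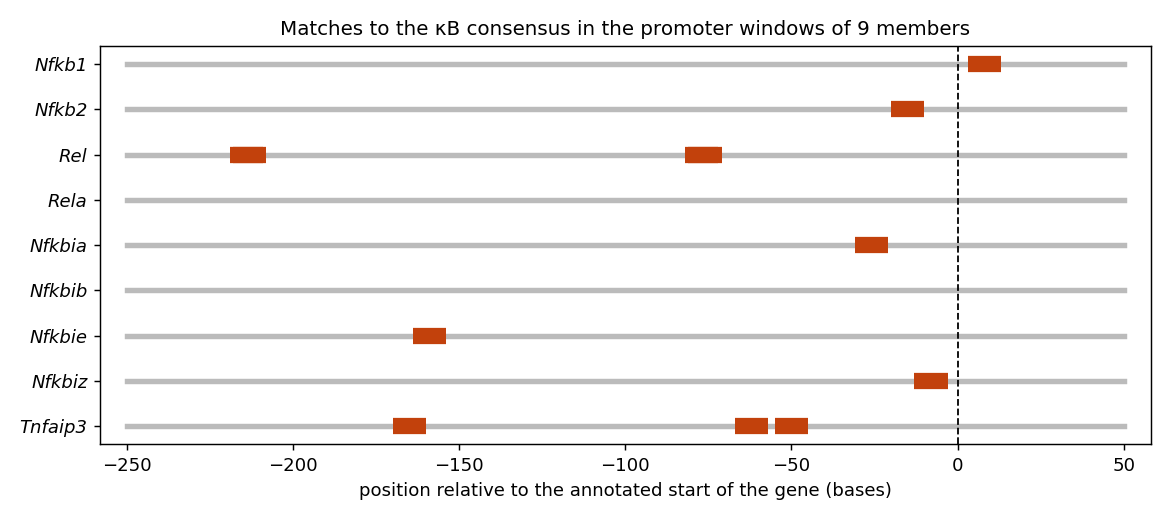
Matches to the κB consensus (orange blocks) in the 300-base promoter windows (grey) of the 9 members with a RefSeq entry; the x axis is the distance in bases from the annotated start of the gene, 0. Of the 9 windows, 7 held a match (7.51% of all windows), and Rel and Tnfaip3 held 2 or more (1.13% of all windows).

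The first comparison asked whether exposure changed these genes at its end. On D0 none of the 10 was a DEG (limma, adjusted p below 0.05 and fold change of at least 1.5), while 1.78% of all genes tested were called. Without adjustment, 4 of 10 had p below 0.05 (11.9% of all genes), 3 of them higher and Nfkbia lower in exposed rats. A log2 FC above 0 was found for 8 of 10 members (49.9% of all genes), with a median of 0.15 against -0.00077 over all genes. The 95% confidence interval of the log2 FC lay wholly inside the 1.5-fold limits for 7 of the 10. It reached past them for Rel, Nfkbie and Nfkbia.

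Of the subunits, Rel had the smallest p on D0. It encodes c-Rel, the subunit best known from lymphocytes and myeloid cells. On D0 the log2 signal of Rel was 6.37, 6.52 and 6.78 in control rats (lowest, median and highest) and 6.84, 6.87, 7.15, 6.84 and 6.87 in the 5 exposed rats. All 5 exposed rats lay above all 6 controls, a separation in this direction that 1.94% of all genes showed. Exposed rats were higher by a log2 FC of 0.37 (SE 0.12, 95% CI 0.13 to 0.61), with an adjusted p of 0.102. Within the 4 slides that held both groups the difference ranged from 0.26 to 0.45 and was above 0 in each. On D28 the groups overlapped, at 6.19, 6.53 and 6.89 in controls and 6.44, 6.77 and 6.92 in exposed rats, and the log2 FC was 0.16 (SE 0.11, adjusted p = 0.674). Within the 3 slides that held both groups on D28 it ranged from -0.23 to 0.58 and was below 0 in 1 of them. The difference between the days was not significant (-0.21, SE 0.16, unadjusted p = 0.207). Rel was read by a single probe, annotated at chr14:104645730-104645789 on the minus strand of rn4.

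Relb, the partner of p52 in the non-canonical branch of the pathway, was read by 4 probes. Its log2 signal on D0 was 7.86, 7.99 and 8.20 in control rats and 8.25, 8.02, 8.33, 8.16 and 8.42 in exposed rats, so that 3 of 5 exposed rats lay above every control. Its log2 FC was 0.22 (SE 0.10, 95% CI 0.01 to 0.44, adjusted p = 0.393). All 4 probes were higher on D0, with log2 FCs between 0.10 and 0.36. On D28 the log2 FC of Relb was 0.14 (SE 0.10, adjusted p = 0.676).

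Nfkb2 encodes p100, the precursor of p52. Its log2 signal on D0 was 9.14, 9.44 and 9.55 in control rats and 9.75, 9.68, 9.58, 9.77 and 9.29 in exposed rats. Thus 4 of 5 exposed rats lay above every control and the other one lay within their range. The log2 FC was 0.21 (SE 0.13, adjusted p = 0.622) on D0 and 0.22 (SE 0.12, adjusted p = 0.539) on D28.

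Nfkb1, which encodes the precursor of p50, and Rela, which encodes the transactivating subunit p65, had log2 FCs closer to 0. On D0 Nfkb1 was at 8.03, 8.14 and 8.28 in control rats and at 8.41, 8.15, 7.96, 8.40 and 8.09 in exposed rats (log2 FC 0.06, SE 0.13). Rela was at 10.41, 10.93 and 11.04 in control rats and at 10.89, 10.77, 10.44, 10.96 and 10.87 in exposed rats (log2 FC -0.07, SE 0.22). On both days the exposed rats overlapped the controls for both genes. On D28 the log2 FC was 0.13 (SE 0.12) for Nfkb1 and 0.06 (SE 0.21) for Rela.

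**Figure D2:**
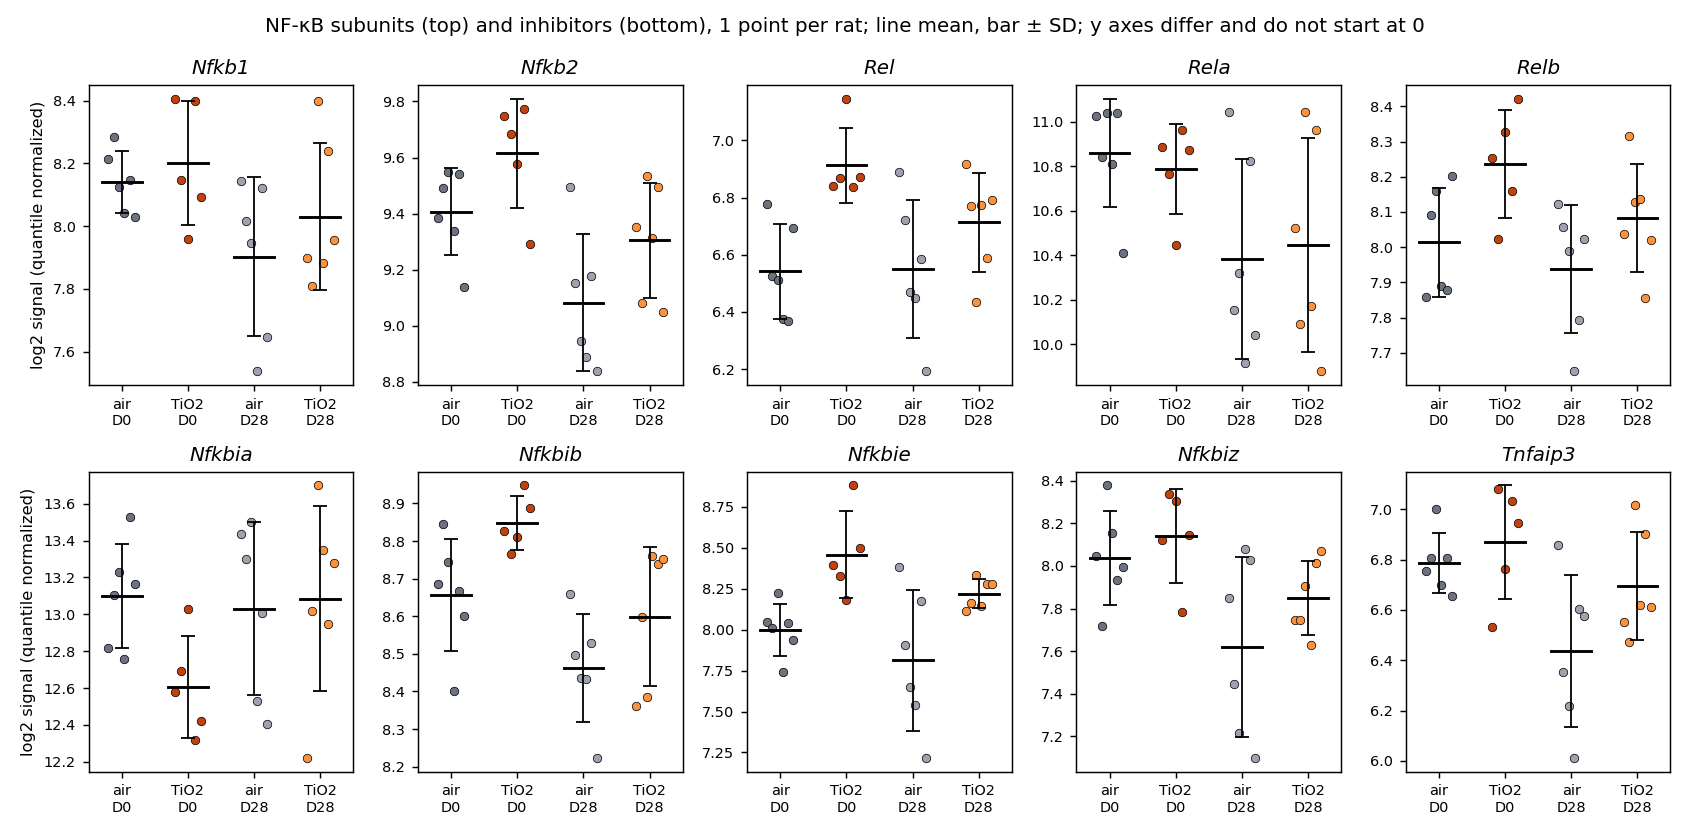
Log2 signal (quantile normalized, y axes that differ between genes and do not start at 0) of the 5 subunits (top) and the 5 inhibitors (bottom) in control and exposed rats on D0 and D28; each point is 1 rat, the line is the group mean and the bar ± 1 SD. For Rel, the 5 exposed rats of D0 (6.84 to 7.15) lie above the 6 controls (6.37 to 6.78), while the Nfkbia values of exposed rats on D0 reach down to 12.32.

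The inhibitors had log2 FCs of either sign on D0. Nfkbie, which encodes IκBε, an inhibitor made in response to NF-κB, had the highest log2 FC of the 10 members. Its log2 signal on D0 was 7.74, 8.03 and 8.22 in control rats and 8.40, 8.33, 8.18, 8.88 and 8.50 in exposed rats. Only replicate 3 of the exposed rats lay within the control range. Its log2 FC of 0.46 (SE 0.16, 95% CI 0.12 to 0.79) was a fold change of 1.37, with an adjusted p of 0.168. With slide as a term in the model it was 0.50 (SE 0.13) and the adjusted p was 0.0271, still below the fold change limit. In that fit Nfkbie was 1 of 10 members with an adjusted p below 0.05, a share to be read against 5.36% of all genes.

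On D28 Nfkbie was at 7.22, 7.78 and 8.38 in control rats and at 8.11, 8.22 and 8.33 in exposed rats. The exposed rats were tightly grouped (SD 0.09) inside the wide control range (SD 0.43). The log2 FC was 0.41 (SE 0.15, 95% CI 0.09 to 0.73), with an adjusted p of 0.264. Within slides the difference was above 0 in all 4 slides of D0 (0.25 to 0.84) and in all 3 slides of D28 (0.03 to 0.95).

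Averaged over both days, Nfkbie was higher in exposed rats by a log2 FC of 0.43 (SE 0.11, 95% CI 0.20 to 0.66, adjusted p = 0.0196), a fold change of 1.35 that stayed below the limit of 1.5. It was the only member with an adjusted p below 0.05 in that comparison, in which 6.55% of all genes had one. Rel followed with 0.27 (SE 0.08, adjusted p = 0.0503), and its side of that threshold changed with the processing. None of the 10 members was a DEG for the mean of both days, against 1.87% of all genes, while 5 of 10 had an unadjusted p below 0.05 (17.2% of all genes). The 95% interval of 9 members lay inside the 1.5-fold limits, and that of Nfkbie reached past them.

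Nfkbia encodes IκBα, the inhibitor with the fastest feedback, and its direction on D0 was opposite to that of Nfkbie. Its log2 signal was 12.76, 13.13 and 13.53 in control rats and 12.58, 12.69, 13.03, 12.32 and 12.42 in exposed rats. Here 4 of 5 exposed rats lay below every control and replicate 3 lay within their range. This gave a log2 FC of -0.49 (SE 0.24, 95% CI -0.98 to -0.0017), with an unadjusted p of 0.0493 and an adjusted p of 0.415. A limma model with slide as a term gave -0.47 (SE 0.22), with an unadjusted p of 0.0527 and an adjusted p of 0.309. The difference was below 0 in each of the 4 slides, between -0.85 and -0.13.

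On D28 the groups overlapped for Nfkbia. Control rats were at 12.40, 13.16 and 13.50, exposed rats at 12.22, 13.15 and 13.70, and the log2 FC was 0.06 (SE 0.22, 95% CI -0.41 to 0.52, adjusted p = 0.973). The change of the exposure effect from D0 to D28 was 0.55 (SE 0.33, unadjusted p = 0.107), which did not pass the test.

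Nfkbia is also a gene that glucocorticoids induce, and a list of 8 other glucocorticoid-induced genes was read beside it. On D0, 4 of the 8 were called, all of them lower in exposed rats: Errfi1 (log2 FC -0.68, adjusted p = 0.0428), Klf9 (-0.86, adjusted p = 0.00312), Per1 (-1.41, adjusted p = 0.0182) and Zbtb16 (-1.99, adjusted p = 0.0435). The share of all genes called lower on D0 was 0.695%, but the list was chosen with earlier results of these data known. Sgk1 was the 1 gene of the list with a log2 FC above 0 on D0 (0.25), and 2 of the 8 were above 0 on D28. Of all genes, 49.9% and 48.9% were above 0 on these days. The mean log2 signal of the list ranged from 10.71 to 11.09 in control rats and from 9.87 to 10.25 in exposed rats. On D28, Fkbp5 (-1.02, adjusted p = 0.0266) and Zbtb16 (-2.23, adjusted p = 0.0293) were called lower (0.269% of all genes), and the list ranged from 10.77 to 11.60 in control rats and from 9.98 to 11.05 in exposed rats. The part of these genes' regulation in the Nfkbia value was not tested.

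Nfkbib encodes IκBβ, the more stable inhibitor. Its log2 signal on D0 was 8.40, 8.68 and 8.84 in control rats and 8.83, 8.77, 8.81, 8.95 and 8.89 in exposed rats, with 2 of 5 exposed rats above every control. Its log2 FC was 0.19 (SE 0.10, adjusted p = 0.467) on D0 and 0.14 (SE 0.09, adjusted p = 0.668) on D28.

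The values of Nfkbiz overlapped fully on D0, at 7.72, 8.02 and 8.38 in control rats and at 8.12, 8.34, 8.31, 7.78 and 8.14 in exposed rats (log2 FC 0.10, SE 0.17). On D28 control rats were at 7.10, 7.65 and 8.08 and exposed rats at 7.63, 7.83 and 8.07 (log2 FC 0.23, SE 0.16, adjusted p = 0.675). The spread of the controls was the wider of the D28 groups, with an SD of 0.42 against 0.17.

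Tnfaip3 was at 6.65, 6.78 and 7.00 in control rats and at 6.53, 7.08, 6.76, 7.03 and 6.95 in exposed rats on D0 (log2 FC 0.08, SE 0.14). On D28 it was at 6.01, 6.46 and 6.86 in control rats and at 6.47, 6.62 and 7.02 in exposed rats (log2 FC 0.26, SE 0.13, adjusted p = 0.498). Its 2 probes disagreed on D0, with log2 FCs of -0.09 and 0.26, so that the direction of Tnfaip3 on that day depended on the probe. On D28 the same probes gave 0.03 and 0.49, so the size also depended on the probe.

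After 28 days of recovery all 10 members had a log2 FC above 0 (48.9% of all genes), between 0.06 and 0.41, with a median of 0.15 against -0.0056 over all genes. The count was 9 to 10 under other settings and 8 to 10 when 1 array was left out. Within the 3 slides that held both groups on D28, the difference was above 0 in each for Nfkb2, Relb, Nfkbie and Nfkbiz. It was below 0 in 1 of the 3 for Nfkb1, Rel, Rela, Nfkbia, Nfkbib and Tnfaip3. The signs of the members are not independent of each other. Pearson's r of their deviations from the group means ranged from -0.35 (Relb and Nfkbiz) to 0.80 (Nfkb1 and Rela). None was a DEG on D28 (0.756% of all genes), and only Nfkbie had an unadjusted p below 0.05 (11% of all genes). The interval lay inside the 1.5-fold limits for 9 of the 10 members, all but Nfkbie. The difference of the exposure effect between D0 and D28 did not pass the test for any member (0 of 10 called by limma against 0.0304% of all genes, and 0 of 10 with an unadjusted p below 0.05 against 3.44%).

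**Figure D3:**
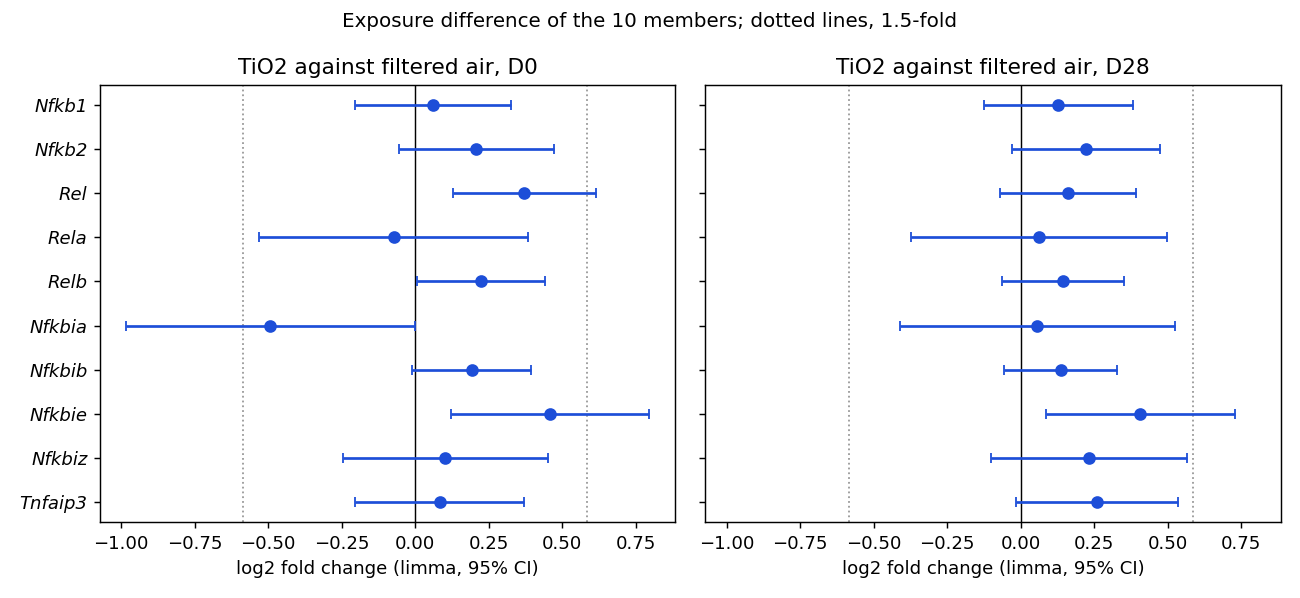
Log2 FC of TiO2 against filtered air for the 10 members on D0 (left) and D28 (right), with the 95% CI from limma; dotted lines mark a 1.5-fold difference in either direction. Nfkbie (0.46 and 0.41) and Rel (0.37 on D0) lie farthest above 0, and Nfkbia on D0 (-0.49) is the point farthest below it.

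The days were then compared in rats that had breathed filtered air. None of the 10 members was called from D0 to D28 (0.608% of all genes). A log2 FC below 0 was found for 9 of 10 (48.9% of all genes were above 0), and 5 had an unadjusted p below 0.05 (13.3% of all genes). These were Rela (-0.48, SE 0.21), Nfkbiz (-0.42, SE 0.16), Tnfaip3 (-0.35, SE 0.13), Nfkb2 (-0.32, SE 0.12) and Nfkbib (-0.19, SE 0.09), with adjusted p between 0.239 and 0.370. The value of Tnfaip3 is a mean of 2 probes that gave 0.01 and -0.71. Rel was at 0.01 (SE 0.11).

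In exposed rats none of the 10 was called (0.352% of all genes), and 9 had a log2 FC below 0 from D0 to D28 (47.3% of all genes were above 0). Nfkbib was the one member whose groups did not overlap, at 8.77 to 8.95 on D0 and 8.36 to 8.76 on D28 (0.538% of all genes were separated in this direction). Its log2 FC was -0.25 (SE 0.10, adjusted p = 0.501). Nfkbia was the exception, with a higher mean on D28 by 0.48 (SE 0.24, unadjusted p = 0.0554).

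The share of the variance within groups that lay between slides differed among the members. Some share is expected without any slide effect, and the shares of other genes were not computed. Of the variance of Rela within groups, 77.3% lay between slides, and for Nfkb1 the share was 75.4%. The arrays of slide 3 lay on average 0.39 above their group means for Rela and those of slide 5 on average 0.37 below (mean deviation -0.37). Tnfaip3 (57.2%), Nfkbie (51.8%) and Nfkb2 (50.8%) were intermediate, and Rel had the lowest share, 2.65%. With slide as a term the SE of the D0 effect was 0.12 in place of 0.22 for Rela and 0.07 in place of 0.13 for Nfkb1. Their effects remained near 0, at -0.0088 for Rela and 0.10 for Nfkb1. A slide was scanned on 1 day, so slide and scan day cannot be told apart.

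**Figure D4:**
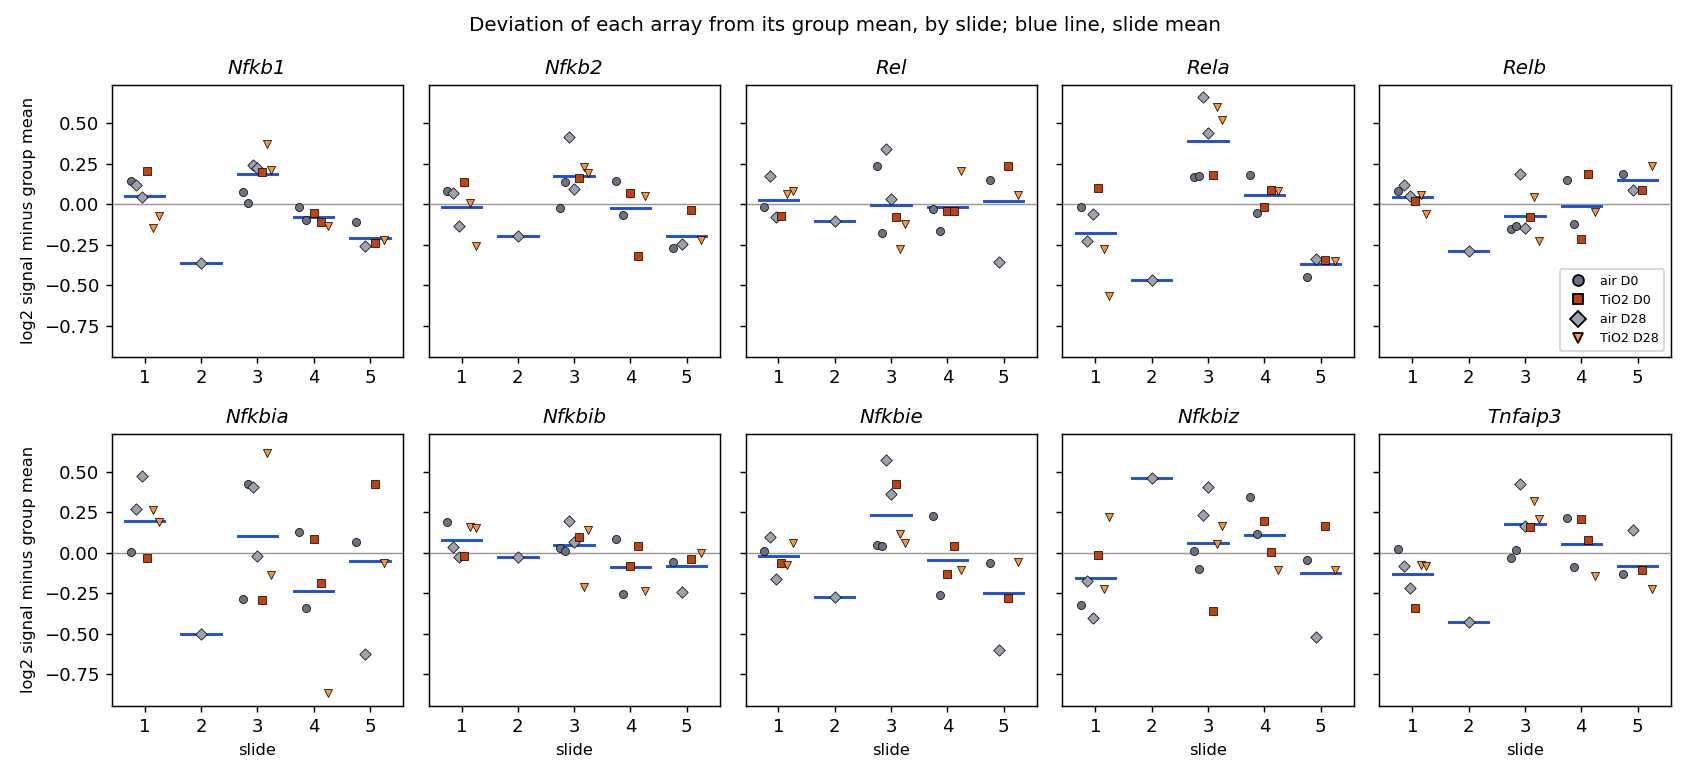
Deviation of each array's log2 signal from its group mean (y axis) by slide (x axis, 1 to 5) for the 10 members; symbols mark the group and the blue line is the mean of a slide. For Rela and Nfkb1 all arrays of slide 3 lie above 0 and all arrays of slide 5 below, while the slide means of Rel stay near 0 except for the single array of slide 2.

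For the 3 members with the smallest adjusted p on D0, the genes with the most similar pattern over the 23 arrays were listed, as Pearson's r of deviations from the group means. These r are descriptive: the genes were picked from all others for a high value, and arrays of a slide share it. Nfkbie ran closest to Trex1, Ifi47 and Irgm (r = 0.92, 0.89 and 0.89), of which Ifi47 and Irgm encode interferon-inducible GTPases and Trex1 a DNA exonuclease. With slide means removed as well, r was 0.83, 0.80 and 0.82. The exposure differences of these 3 did not pass the test on D0 (log2 FC of 0.12, 0.19 and 0.14, adjusted p of 0.949 to 0.969). Rel ran closest to LOC102548061, Olr1646 and Gp6 (r = 0.75, 0.73 and 0.71), and Relb to LOC684270, Il36rn and LOC102549242 (r = 0.82, 0.77 and 0.77). After removal of slide means, r was 0.79, 0.81 and 0.77 for Rel and lower, at 0.71, 0.61 and 0.55, for Relb.

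The rest of the pathway was read on the same arrays from lists of its genes. Of 19 ligands and receptors, 1 was called on D0, higher in exposed rats (1.09% of all genes were called higher), and none on D28. This was Tnf, the cytokine that activates the canonical pathway, at 6.61 to 7.70 in control rats and 7.74 to 8.58 in exposed rats (log2 FC 1.06, SE 0.22, adjusted p = 0.00888). On D28 its log2 FC was 0.26 (SE 0.21). Il1b, another activating cytokine, had log2 FCs of 0.01 (SE 0.20) on D0 and 0.10 (SE 0.19) on D28.

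None of 26 kinases and adaptors was called on either day by limma (1.78% of all genes on D0 and 0.756% on D28). An unadjusted p below 0.05 was found for 4 on D0 and 3 on D28, when 11.9% and 11% of all genes had one. Ikbkb, the catalytic IκB kinase of the canonical branch, had exposed rats at 10.25 to 10.42 above all controls at 9.96 to 10.22 on D0 (log2 FC 0.23, SE 0.09, adjusted p = 0.238). In this direction 2 of the 26 were separated on D0, against 1.94% of all genes. Chuk, which encodes the other catalytic subunit, was at -0.07 (SE 0.09), and Ikbkg, which encodes the regulatory subunit NEMO, was at -0.23 (SE 0.19). Map3k14, the kinase that starts the non-canonical branch, had log2 FCs of 0.29 (SE 0.17) on D0 and 0.45 (SE 0.16, adjusted p = 0.227) on D28.

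Of 18 further inhibitors and modulators, 1 was called on D0 (1.78% of all genes) and none on D28 (0.756% of all genes). Bcl3 encodes a nuclear IκB protein that binds p50 and p52 homodimers. Its log2 signal on D0 was 8.70 to 9.11 in control rats and 9.31 to 9.79 in exposed rats, with a log2 FC of 0.65 (SE 0.14, adjusted p = 0.00960). On D28 it was 0.37 (SE 0.13, adjusted p = 0.227). Tnip1, a partner of A20, had log2 FCs of -0.01 (SE 0.19) and 0.05 (SE 0.18).

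Among 35 measured target genes, 5 were called higher on D0 (1.09% of all genes) and none lower (0.695% of all genes). A log2 FC above 0 was found for 26 (49.9% of all genes), and the 35 ranged from -0.44 to 2.36 with a median of 0.33. Sod2, the mitochondrial superoxide dismutase, rose by a log2 FC of 0.82 (SE 0.12, adjusted p = 0.000634). Lcn2, which encodes lipocalin-2, rose by 1.65 (SE 0.28, adjusted p = 0.00139). Ccl2, the monocyte attractant, rose by 1.46 (SE 0.29, adjusted p = 0.00658), and the endothelial adhesion molecule Sele by 1.23 (SE 0.30, adjusted p = 0.0255).

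The probes of Cxcl6, a neutrophil attractant, were not well above background on any of the 6 control arrays of D0 and were above it on 4 of 5 exposed arrays. With the controls raised to the lowest signal well above background, exposed over control was 2.23-fold. The exposed array not above background was kept as measured in that value. The adjusted p of 0.0204 (limma) belongs to the fitted log2 FC of 2.36, which used the control signals as measured, and not to the 2.23-fold value. In controls of D28 Cxcl6 was above background on 5 of 6 arrays, at 3.72 to 4.98, within the range of 1.85 to 5.50 in the exposed rats of D0. In filtered air it was called higher on D28 than on D0 (adjusted p = 0.0342). On D28 none of the 35 was called for exposure, the median was 0.13, and Ccl2 had a log2 FC of 0.92 (SE 0.28, adjusted p = 0.123).

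**Figure D5:**
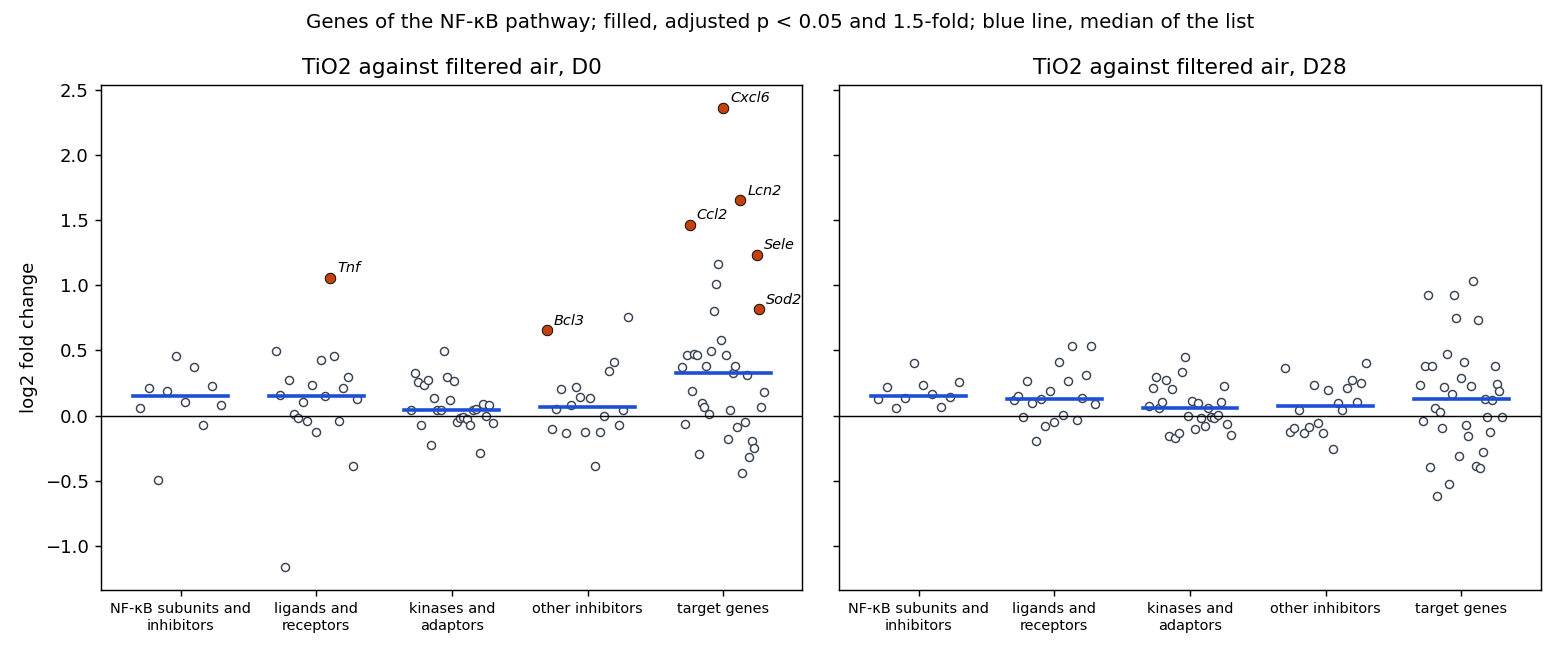
Log2 FC of TiO2 against filtered air on D0 (left) and D28 (right) for the 10 members and 4 further lists of the NF-κB pathway; each point is a gene, filled where it was called, and the blue line is the median of the list. Called genes are Tnf, Bcl3 and 5 target genes on D0 and none on D28; Cxcl6 is drawn at its fitted value of 2.36, although its level in the controls of D0 was not well above background.

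Markers of cell types moved in the same rats. Of 12 genes listed as macrophage markers, Itgam (log2 FC 0.99) and Siglec1 (0.89) were called higher on D0 (1.09% of all genes). Itgam (0.93) was also called higher on D28 (0.486% of all genes), and this gene is not confined to macrophages. On each day 10 of the 12 had a log2 FC above 0 (49.9% and 48.9% of all genes) and 2 had one below. Adgre1 was among the lower ones on D0, with a mean of 7.99 in control and 7.74 in exposed rats. The mean of the list ranged from 9.01 to 9.23 in control and 9.38 to 9.72 in exposed rats on D0. On D28 the ranges were 8.79 to 9.30 and 9.16 to 9.57. The 8 type II cell markers ranged from 14.56 to 14.67 in control and 14.74 to 14.98 in exposed rats on D0, and the 6 type I cell markers from 12.77 to 12.92 and 12.36 to 12.66. All 7 endothelial markers had a log2 FC below 0 on both days (49.9% of all genes were above 0 on D0 and 48.9% on D28). Their mean ranged from 12.49 to 12.67 in control and 12.18 to 12.38 in exposed rats on D0, without overlap. All 7 muscle markers had a log2 FC below 0 on D0, where their mean ranged from 8.75 to 8.91 and from 8.42 to 8.72, again without overlap. These ranges are of list means. No single gene of either list was separated on D0, when 545 of all 23031 genes were separated lower. On D28 the groups overlapped for both lists. Of 8 airway markers, 7 had a log2 FC below 0 on each day, and on D28 their mean ranged from 11.02 to 11.51 in control and 10.60 to 11.01 in exposed rats. No single marker of neutrophils (10 measured), T cells (10), B cells (8), airway cells (8), endothelium (7) or muscle (7) was called on either day, nor was any of 12 immediate-early genes. A log2 FC below 0 was found for 7 of the 10 neutrophil markers on D0 and for 8 on D28. The other 3 and 2 were above 0, and S100a9 was the highest on both days (0.63 and 0.61). In lavage fluid, which was not read here, the authors found a higher percentage of neutrophils in exposed elderly rats on both days. The part of the marker differences in the values of the members was not tested.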

How the data were processed

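For each array the authors deposited the output of Agilent Feature Extraction, with intensities per spot not normalized between arrays (per the file headers, version 11.0.1.1, with 1 array at 12.0.1.1). They also deposited a table of all arrays, quantile normalized intensities without background correction, used only as an alternative. Their methods name quantile normalization, a correction for batches that are not named, and limma. A sixth exposed rat of D0 is not analysed here. For exposed rats of D28 the source label reads day 0, so groups follow titles and descriptions.

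Here log2 of the processed signal was used. Control spots were left out, and spots flagged as outliers were set missing. Probes had to exceed the 95th percentile of the negative controls on at least 5 arrays (40420 of 45598 probes kept). After quantile normalization, probes of a gene were averaged. A model with 4 group means (limma 3.58.1 in R 4.3.3, 19 residual degrees of freedom) was fitted to 23031 genes, tested on simulated data, and p-values were adjusted by Benjamini-Hochberg over all genes. A gene was called at an adjusted p below 0.05 and a fold change of at least 1.5. Named in the text are all 10 members, every gene of the pathway lists called for exposure on D0, on D28 or in their difference, and, whatever their values, Ikbkb, Ikbkg, Chuk, Map3k14, Tnf, Il1b, Bcl3 and Tnip1. The members and lists were chosen with earlier results of these data known. Gene names are those of the array design. The number of arrays limits the precision. The p-values set a difference between groups against the spread of arrays within groups, which holds differences between rats and between slides.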

Additional observations from a re-analysis of the deposited data

Results flagged for a closer look

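A sample far from the others of its group was found for 2 of 40 combinations of member and group, where chance flags about 1 group in 20. The log2 signal of Rel in exposed replicate 3 of D0 was 7.146, while the next highest of the 5 was 6.872. Without it the other 4 exposed rats still lay above all controls of D0. The log2 signal of Rela in control replicate 6 of D0 was 10.41, while the next lowest of the 6 was 10.81. This array lay on slide 5, on which all arrays were below their group means for Rela.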

How the results depend on the processing

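None of the 10 members was called in any of the 6 comparisons under any planned setting that kept the fold change limit, or when any of the 23 arrays was left out (0 to 0 in each comparison). With adjusted p alone, 1 member, Nfkbie, passed for the mean of both days. In a choice made after seeing the data, slide as a block with adjusted p alone, 1 member passed on D0 and 1 for the mean of both days, Nfkbie in each.

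For the mean of both days, Nfkbie had an adjusted p below 0.05 in each of 14 other settings (0.00267 to 0.0478) and without each of the arrays in turn (0.00442 to 0.0442). Rel for the mean of both days had an adjusted p below 0.05 in 7 of 14 other settings (0.0245 to 0.0806) and in 5 of 23 with an array left out (0.0191 to 0.0988). On D0 the adjusted p of Nfkbie was 0.0271 to 0.290 over 15 other settings. That of Rel on D0 was 0.0223 to 0.141, below 0.05 in 3 of 15.

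Of 60 values of member and comparison, 44 never changed sign; the cause of the changes was not tested. With 75th percentile scaling the difference between the days was -0.00095 for Nfkb1 and -0.037 for Nfkb2. With slide as a block it was -0.019 for Nfkb1, -0.048 for Nfkb2 and -0.035 for Rela, and the D28 effect of Rela was -0.044. With slide as a random block, that difference was -0.016 for Nfkb2 and the mean effect of Rela was 0.0011. With array quality weights, Nfkbia was at -0.19 for the D28 effect and 0.069 for the change in air. The change of Relb in air was 0.010 with normexp and 0.18 for the probe with the highest signal. Single probes of Relb gave 0.18 and 0.015 in air and 0.032 and 0.063 for the difference between the days. The first probe of Tnfaip3 gave -0.092 on D0, -0.029 for the mean, 0.013 in air and 0.14 in TiO2.

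Leaving out 1 array each moved the sign of 9 values. The difference between the days ranged from -0.0067 to 0.12 for Nfkb1, from -0.066 to 0.096 for Nfkb2 and from -0.17 to 0.062 for Nfkbie. The D28 effect ranged from -0.069 to 0.23 for Nfkbia and from -0.058 to 0.19 for Rela. The change in air ranged from -0.16 to 0.056 for Nfkbia and from -0.058 to 0.082 for Rel. For Rela the D0 effect ranged from -0.16 to 0.012 and the mean effect from -0.066 to 0.060.

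Same-numbered rats were not treated as pairs in the main model. The correlation of their deviations was -0.22 to -0.12 over 5 pairs on D0 and -0.17 to 0.46 over 6 pairs on D28, where 3 were above 0.1. Rats of different numbers were not compared in this way, so a pairing on D28 was not settled. With the replicate number as a block, 0 members were called in each comparison, as without it.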
